A study of Citrullus lanatus with 30 samples.

Results

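The MYB genes of watermelon (Citrullus lanatus) were followed in RNA from fruit flesh of 2 genotypes at 5 ages. A gene was taken as a member when a word of its description in the deposited expression table began with MYB, in capitals or not, and REVEILLE and LHY genes were left out. Of 22596 genes listed, 194 met this rule, and the 97 of them with at least 1 TPM (an abundance scaled to transcript length and to the library total) in at least 3 of 30 libraries were tested among 16503 genes. Wild type (WT) was compared with a mutant labelled clnor, for which no allele is named. Both genotypes were sampled 10, 18, 26, 34 and 42 days after pollination (DAP), and each of the 10 groups holds 3 libraries. No other treatment is given, and no gene description names the mutated gene, so its level was not checked. Nothing says whether replicates are separate fruits or plants, so p-values measure the spread between these libraries, which may be technical.

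MYB proteins bind DNA through repeated helical segments, and in plants they form one of the largest transcription factor families. Members with a pair of repeats (R2R3) are known in Arabidopsis and other species to set phenylpropanoid and flavonoid synthesis, cuticle and secondary wall formation, trichome and seed coat fate. Three-repeat members act in the cell cycle, the single-repeat and related members in circadian, phosphate and other responses, and short R3 members repress R2R3 complexes.

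By the words of their descriptions, the 194 members comprised 88 MYB factors with no further name (43 tested) and 21 with a number or letter (13 tested). A further 18 were MYB-related factors (9 tested), 12 were MYB/HD-like (8 tested), 7 were APL factors (all tested), named after the Arabidopsis regulator of phloem identity, and 10 were L10-interacting (7 tested). The Arabidopsis namesake of the last binds a ribosomal protein and lowers genes of the translation machinery. Another 29 were Myb/SANT-like (2 tested) and 3 were three-repeat factors (2 tested). The remaining 6, all tested, are described as target of Myb proteins. Proteins of that name act in membrane trafficking and are no MYB factors, so they met the rule by name alone.

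Of the 97 members left out as low, 41 were listed at 0 in all 30 libraries, 87 stayed below 1 TPM in every library, and 10 reached 1 TPM in 1 or 2 libraries, with 4.59 TPM as the highest value. Just inside the limit, the third-highest library stood at 1.05 TPM for Cla97C08G159210 and 1.06 TPM for Cla97C10G204380. Just outside it stood at 0.9 TPM for Cla97C03G066000 and 0.89 TPM for Cla97C01G005430. Among tested members, 55 were at 1 TPM or more in all 30 libraries and 17 in only 3 to 6 of them. A gene that passed only through the libraries where it was high had to vary, so its call is a description only. Counts over the tested members are likewise given as a description, beside those of all genes tested.

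TPM keeps no sequencing depth, so depth is unknown and no counting interval can be given. TPM sums were 970726.9 to 985839.6 per library. Across genes, 5 libraries resembled another group's mean more than that of their own. At 18 DAP, WT replicate 3 lay nearest to clnor of that age (r 0.969, own group 0.945) and clnor replicate 3 nearest to WT (r 0.977, own group 0.942). The other 3 were clnor 10 DAP replicates 1 and 3 and clnor 34 DAP replicate 2. All 9 genes of the carotenoid pathway taken as flesh markers were tested, and their summed level was 195.81 to 540.52 TPM in every library. Genes listed as seed markers by their descriptions summed to 3010.42 to 8223.0 TPM, and those listed as phloem markers to 90.71 to 1004.7 TPM. These sums do not show how pure the flesh was, which was not tested.

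MYB genes together held 0.2361 to 0.3769% of the TPM of a library, and 63 to 81 of them were at 1 TPM or more in any 1 library. Mean levels over 30 libraries were at least 100 TPM for 9 members, 10 to 100 TPM for 37, 1 to 10 TPM for 32 and below 1 TPM for 19. The 8 most abundant members held 51% of the summed MYB level. The most abundant, the Myb transcription factor gene Cla97C10G187110, stood at 475.7, 334.0 and 486.06 TPM in WT at 10 DAP and at 223.36, 284.64 and 329.4 TPM at 34 DAP. In clnor it stood at 532.03, 691.34 and 268.74 TPM at 10 DAP and at 238.42, 374.35 and 408.07 TPM at 34 DAP. The genotypes overlapped at both ages, and no comparison between them called the gene.

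The spread between replicates was wide for several abundant members. The MYB/HD-like gene Cla97C05G092670 (mean 212.057 TPM over all libraries) was at 15.31, 8.17 and 203.29 TPM in the 3 WT libraries of 18 DAP and at 95.74, 110.61 and 12.17 TPM in those of clnor. In each genotype replicate 3 stood apart from the other libraries and on the side of the other genotype. The MYB-related gene Cla97C05G101970 (mean 193.706 TPM) was at 19.98, 28.4 and 114.99 TPM in WT at 18 DAP and its genotypes overlapped at every age. A steadier member was the L10-interacting gene Cla97C03G062750, with a mean of 14.842 TPM and no library above 18.31 TPM. Of the 7 L10-interacting genes none was called at 10, 18, 26 or 42 DAP (all genes 0.473, 2.35, 15.5 and 32.6%). At 34 DAP 1 was called higher in clnor (all genes 27.4%), and averaged over the ages 1 (all genes 31.8%). From 10 to 34 DAP 2 fell in WT (all genes 29.4%) and 1 rose in clnor (all genes 13.2%). Counts of so few genes show no property of the class.

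**Figure D1:**
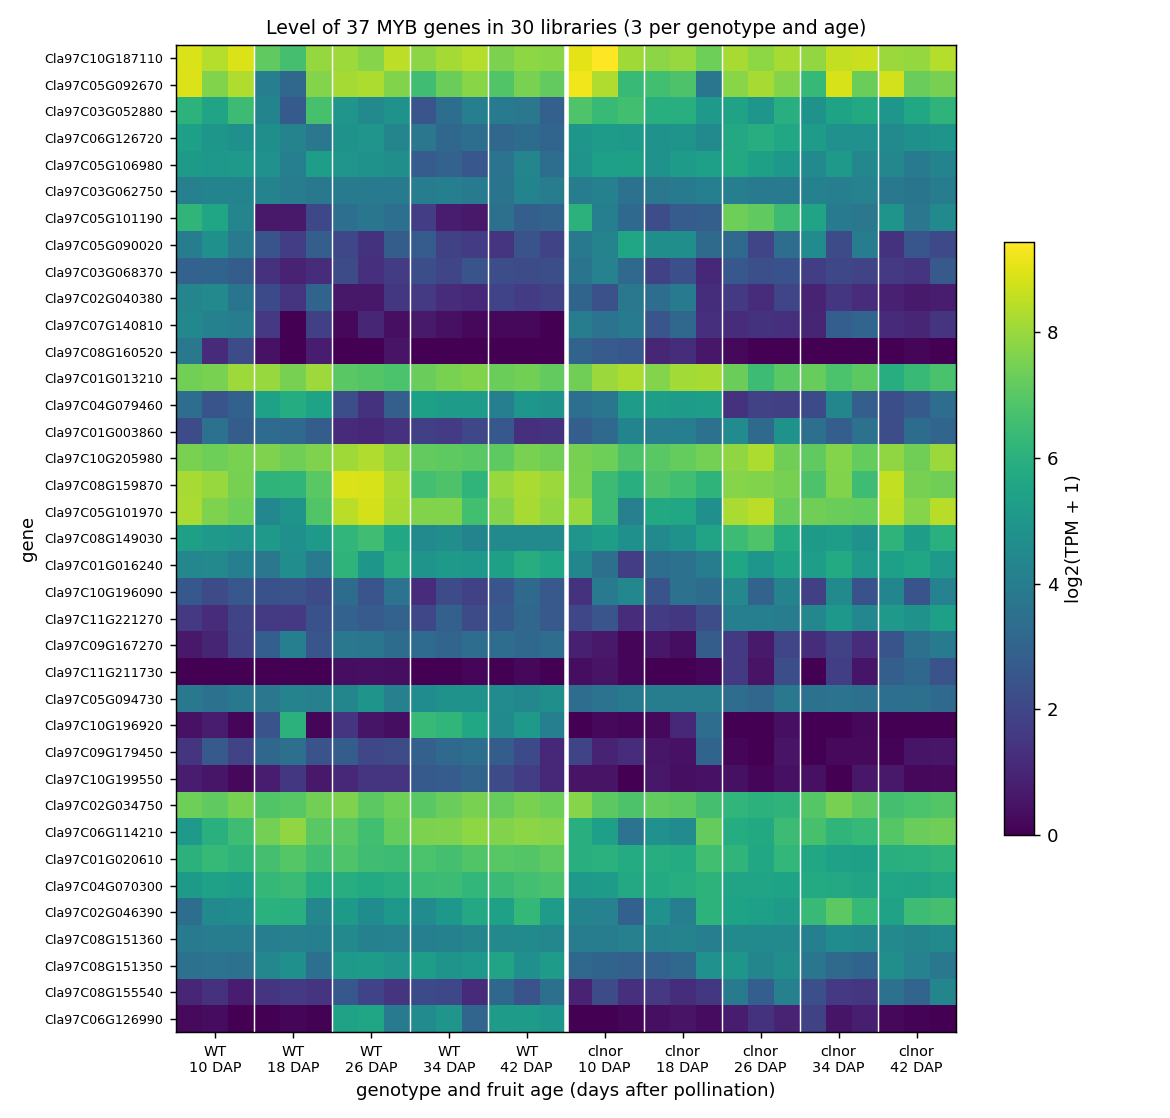
Levels of 37 genes matched by the MYB rule, as log2(TPM + 1), in 30 libraries; columns are libraries grouped by genotype and age, and rows are ordered by the age of the highest WT mean. Cla97C10G196920 is high at 34 and 42 DAP in WT and near 0 at those ages in clnor, and Cla97C10G187110 is high in all 30 columns.

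In WT flesh more MYB genes had their highest mean at 10 DAP than at any other single age. The highest WT mean fell at 10 DAP for 43 of 97 members (44.3%, against 26% of all genes tested), at 18 DAP for 12, at 26 DAP for 20, at 34 DAP for 7 and at 42 DAP for 15. In clnor it fell at 10 DAP for 26 members (26.8%, against 19.8% of all genes), at 18 DAP for 23, at 26 DAP for 18, at 34 DAP for 12 and at 42 DAP for 18. Between the genotypes the age of the highest mean was the same for 46 members, later in clnor for 33 and earlier for 18. Of all genes 20.9, 21.5, 8.65 and 22.9% had their highest WT mean at 18, 26, 34 and 42 DAP in turn. In clnor these shares were 23.3, 22.2, 12.7 and 22%. Shifts of the age between genotypes were not counted over all genes, so those of the members describe no property of the family. These are orders of group means without a test.

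A linear model over the 10 groups was fitted to log2(TPM + 1) of all genes with limma, and a gene was called at a Benjamini-Hochberg adjusted p below 0.05 within a comparison. Differences are given on that log2 scale with their standard error (SE). The scale understates changes of genes at low level. From 10 to 34 DAP, 47 of 97 members were called in WT (48.5%, against 48.5% of all genes), 14 as rises (all genes 19.1%) and 33 as falls (all genes 29.4%). Libraries of the 2 ages did not overlap for 66 members, against 63% of all genes. Falls also outnumbered rises with upper-quartile scaling (15 rises, 33 falls) and after quantile normalization (19 rises, 26 falls). Of the 16503 genes tested 3417 rose and 4900 fell with upper-quartile scaling. After quantile normalization 4422 of them rose and 3562 fell. The median log2 change was -0.417 for MYB genes and -0.131 for all genes tested, and after quantile normalization -0.141 and 0.066.

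Among the falls, Myb-like transcription factor 3 (Cla97C07G140810) was at 19.91, 16.64 and 14.97 TPM in WT at 10 DAP and at 0.59, 0.34 and 0.14 TPM at 34 DAP. All older libraries lay far below the young ones, a log2 difference of -3.75 ± 0.47 (limma adjusted p 1.22e-06). The MYB/HD-like gene Cla97C02G040380 fell from 18.58, 20.6 and 11.62 TPM to 2.04, 1.28 and 1.13 TPM, by 2.83 ± 0.49 on the log2 scale (limma adjusted p 6.23e-05). A Myb-like gene, Cla97C05G106980, fell from 34.1, 31.71 and 32.12 TPM to 5.75, 6.79 and 4.97 TPM (-2.31 ± 0.26, limma adjusted p 2.98e-07). Its WT levels at 10 and 34 DAP did not overlap. The Myb gene Cla97C08G160520 was at 12.74, 1.25 and 3.62 TPM in WT at 10 DAP and was listed at 0 in all 3 WT libraries of 34 DAP and all 3 of 42 DAP.

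The largest WT rise was that of the MYB-related gene Cla97C10G196920, described with its clnor values below. The Myb gene Cla97C06G114210, one of the 8 most abundant members, stood at 32.67, 63.22 and 88.78 TPM at 10 DAP and at 188.73, 195.99 and 226.23 TPM at 34 DAP. The groups did not overlap (1.82 ± 0.53, limma adjusted p 0.00679). Leaving out WT 10 DAP replicate 1 lost the call (1.43, limma adjusted p 0.0519), and over 15 alternatives the adjusted p ran from 0.0049 to 0.0519. In clnor the same gene was at 58.69, 39.05 and 11.06 TPM at 10 DAP and at 100.98, 71.5 and 77.99 TPM at 34 DAP (1.45 ± 0.53, limma adjusted p 0.0491), a call lost under 9 of 15 alternatives (range 0.0173 to 0.294, the highest without clnor 10 DAP replicate 3). Averaged over the ages it was lower in clnor (-1.12 ± 0.24, limma adjusted p 0.000441).

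The MYB gene Cla97C08G159870 went up and down in WT, from 290.45, 249.91 and 179.89 TPM at 10 DAP through 491.4, 460.19 and 301.76 TPM at 26 DAP to 97.8, 111.45 and 71.58 TPM at 34 DAP. Its fall from 10 to 34 DAP was called (-1.35 ± 0.36, limma adjusted p 0.00375). In clnor it was at 184.65, 88.14 and 61.33 TPM at 10 DAP and at 111.41, 198.78 and 89.86 TPM at 34 DAP, which overlapped (0.33 ± 0.36, limma adjusted p 0.556).

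In clnor, 22 members were called between 10 and 34 DAP (22.7%, against 24.2% of all genes), 8 as rises (all genes 13.2%) and 14 as falls (all genes 11%), and falls outnumbered rises under each scaling tried. Libraries of the 2 clnor ages did not overlap for 33 members, against 32.4% of all genes. Of the 47 members called in WT, 36 were not called in clnor (76.6%, against 67.9% of all genes called in WT). The remaining 11 were called in the same direction in both genotypes, and none in opposite directions. The genotype difference of the change itself was called for 17 of the 36 (47.2%, against 48.1% of all such genes). For the other 19 a different response was not shown. Over all 97 members the difference of the change was called for 24 (24.7%, against 23.9% of all genes), 15 with a higher change in clnor (all genes 16%) and 9 with a lower one (all genes 7.94%), and after quantile normalization for 12 and 12. Of the 16503 genes tested, 1683 and 1788 were called in these directions after quantile normalization.

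The Myb family gene Cla97C02G046390 was at 18.29, 17.26 and 6.56 TPM in clnor at 10 DAP and at 80.55, 130.6 and 78.05 TPM at 34 DAP, a rise of 2.77 ± 0.5 on the log2 scale (limma adjusted p 0.000348). Every older clnor library exceeded every young one. In WT its levels were 9.6, 21.1 and 23.1 TPM and then 22.4, 32.11 and 50.19 TPM, which overlapped and were not called (limma adjusted p 0.129), and the difference between the 2 changes did not pass (1.83 ± 0.71, limma adjusted p 0.0641). A second Myb gene, Cla97C01G016240, stood at 19.12, 10.1 and 2.28 TPM and then at 37.62, 53.08 and 33.25 TPM in clnor, a rise of 2.2 ± 0.41 (limma adjusted p 0.000493). A fit of the compared groups alone lost that call (limma adjusted p 0.0818, range over 15 alternatives 3.72e-05 to 0.0818).

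**Figure D2:**
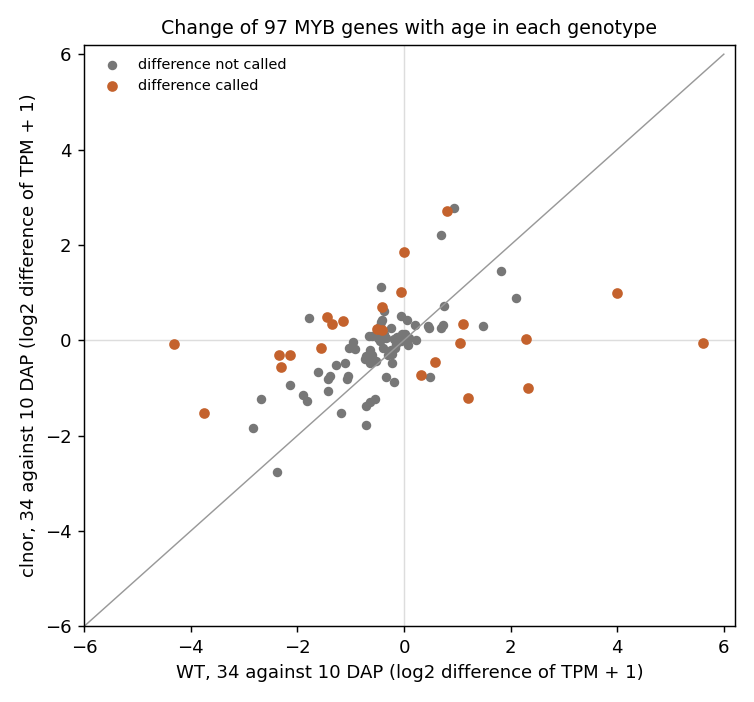
Change from 10 to 34 DAP of 97 tested members, as log2 differences of TPM + 1, in WT (horizontal axis) and clnor (vertical axis); the diagonal marks equal change, and the 24 members whose genotype difference of the change was called are orange. The point farthest to the right is Cla97C10G196920, at 5.6 in WT and -0.05 in clnor, and the point farthest to the left is Cla97C05G101190, at -4.32 and -0.08.

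Set against WT at the same age, clnor flesh differed in 1 and 2 MYB genes at 10 and 18 DAP and in 19 or more from 26 DAP on, with all libraries in the fit. At 10 DAP 1 of 97 members was called (1.03%, against 0.473% of all genes), and at 18 DAP 2 (2.06%, against 2.35%). The counts were 19 at 26 DAP (19.6%, against 15.5%), 35 at 34 DAP (36.1%, against 39.4%) and 29 at 42 DAP (29.9%, against 32.6%). Averaged over the ages 43 were called (44.3%, against 48.2%). The share of MYB genes called was thus near that of all genes at each age, and the counts describe no property of the family. The count at 18 DAP was 10 without WT replicate 3, 12 without clnor replicate 3 and 23 without both. These are the libraries nearest to the other genotype, so leaving them out favours a higher count. The shares of all genes in these fits are not given here, so the counts describe no property of the members. The age from which more members were called thus depends on these libraries. The count at 26 DAP was 12 without WT replicate 2. Libraries of the genotypes did not overlap for 15, 14, 39, 44 and 43 members at the 5 ages in turn, against 13.1, 12.8, 36.8, 52.2 and 47.8% of all genes. Without the 6 target of Myb genes the counts were 1, 2, 18, 33, 25 and 40 of 91.

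**Figure D3:**
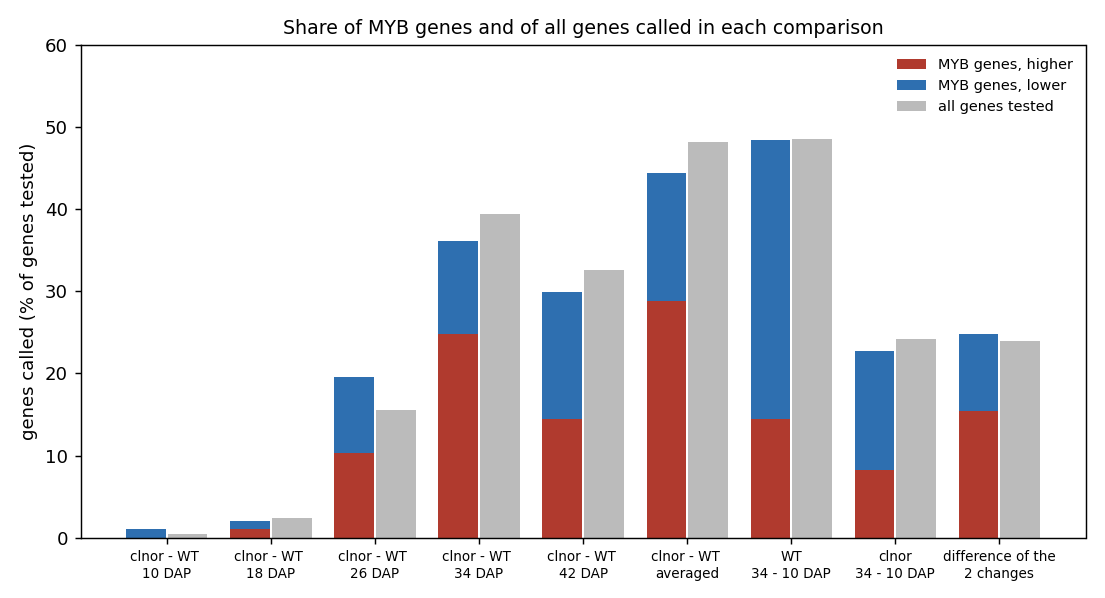
Share of genes called (percent of genes tested, adjusted p below 0.05) in 9 comparisons, for 97 MYB genes split into higher (red) and lower (blue) and for all 16503 genes tested (grey). Bars of MYB genes and of all genes are of similar height in each comparison, for example 36.1 and 39.4% at 34 DAP. The split between red and blue is that of the TPM as deposited and moves with the scaling, to 17 higher and 17 lower at 34 DAP after quantile normalization. All genes then had 2882 higher and 2937 lower.

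The direction of these calls depended on the scaling. The single call of 10 DAP was lower in clnor (all genes 0.248% higher, 0.224% lower), and those of 18 DAP were 1 higher and 1 lower (1.38% and 0.97%). At 34 DAP 24 members were higher and 11 lower in clnor as deposited (all genes 27.4% and 12.1%), 23 and 14 with upper-quartile scaling, and 17 and 17 after quantile normalization, which moved the median log2 difference of all genes from 0.199 to -0.003. At 26 DAP 10 were higher and 9 lower (all genes 9.66% and 5.8%), and after quantile normalization 7 and 11. At 42 DAP 14 were higher and 15 lower (all genes 18.8% and 13.8%), and after quantile normalization 12 and 19. Averaged over the ages 28 were higher and 15 lower (all genes 31.8% and 16.4%), and after quantile normalization 21 and 22. Of the 16503 genes tested, 1277 were higher and 1364 lower at 26 DAP after quantile normalization. The same counts were 2882 and 2937 at 34 DAP, 2542 and 2895 at 42 DAP, and 3707 and 4024 averaged over the ages. With upper-quartile scaling 4060 were higher and 2506 lower at 34 DAP. Beside these counts, the median log2 difference of MYB genes and of all genes was 0.191 and 0.199 at 34 DAP and 0.144 and 0.09 averaged over the ages. No named gene called in a comparison changed its direction under an alternative.

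Of the 97 members, 46 were called at no age (47.4%, against 46.7% of all genes), 27 at 1 age, 13 at 2 ages and 11 at 3 ages. None was called higher at one age and lower at another. At 26, 34 and 42 DAP alike, 10 members were called in 1 direction (10.3%, against 7.96% of all genes), 5 higher and 5 lower in clnor. The higher ones were Cla97C01G003860, Cla97C06G126680, Cla97C06G126720, Cla97C07G132800 and Cla97C11G221270, and the lower ones Cla97C01G020610, Cla97C05G094730, Cla97C06G126990, Cla97C09G179450 and Cla97C10G199550. Several of these calls are lost without 1 library, as given with each gene. No all-gene values are given here for the counts at 1, 2 or 3 ages or for the lack of mixed directions. The same holds for the split of 5 and 5, so none of these shows a property of the members.

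Cla97C10G196920, a MYB-related gene, had the largest difference at 34 DAP. In WT it stood at 0.38, 0.69 and 0.13 TPM at 10 DAP, at 4.32, 66.39 and 0.12 TPM at 18 DAP and at 1.7, 0.46 and 0.27 TPM at 26 DAP. It then stood at 82.02, 72.16 and 48.46 TPM at 34 DAP and at 22.05, 33.06 and 15.66 TPM at 42 DAP. High WT libraries were thus those of the last 2 ages and 1 library of 18 DAP. In clnor it was at 0.14, 1.08 and 9.41 TPM at 18 DAP, was at 0.3 TPM or below in every library of the other ages, and was listed at 0 in all 3 libraries of 42 DAP. The difference at 34 DAP was -6.0 ± 0.86 (limma adjusted p 1.11e-05).

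A MYB family gene, Cla97C06G126990, was near 0 in young fruit of both genotypes and high in older WT fruit. Its WT levels were 41.95, 46.04 and 13.49 TPM at 26 DAP, 22.28, 29.08 and 7.44 TPM at 34 DAP and 34.9, 35.87 and 29.92 TPM at 42 DAP. In clnor no library exceeded 2.53 TPM at any age, and the genotypes did not overlap at these 3 ages. The log2 difference was -3.93, -3.13 and -5.02 at 26, 34 and 42 DAP, each ± 0.4 (limma adjusted p 1.16e-06, 2.21e-06 and 4.84e-09).

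The Myb gene Cla97C04G079460 went up and down with age in WT. It stood at 9.71, 4.41 and 6.56 TPM at 10 DAP, at 41.27, 55.91 and 43.71 TPM at 18 DAP and at 3.76, 1.64 and 6.24 TPM at 26 DAP, before 39.84, 35.23 and 36.27 TPM at 34 DAP. In clnor it was at 37.66, 36.1 and 36.97 TPM at 18 DAP and at 3.39, 19.2 and 6.31 TPM at 34 DAP. The high level of 18 DAP was thus found in both genotypes, and that of 34 DAP in WT. The difference was -0.33 ± 0.46 at 18 DAP, which did not pass (limma adjusted p 0.755), and -2.14 ± 0.46 at 34 DAP (limma adjusted p 0.000849).

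Myb 5 (Cla97C09G167270) carries the name of an Arabidopsis regulator of seed coat and trichome development. It was at 12.62, 11.95 and 9.16 TPM in WT and 2.04, 0.59 and 2.96 TPM in clnor at 26 DAP. At 34 DAP the values were 8.78, 7.47 and 9.37 TPM in WT and 1.37, 2.66 and 1.31 TPM in clnor. The genotypes did not overlap at either age (-2.18 ± 0.5 and -1.81 ± 0.5, limma adjusted p 0.0046 and 0.00638). At 42 DAP clnor had 4.44, 10.11 and 13.63 TPM, which enclosed the WT values of 9.46, 7.99 and 9.37 TPM (-0.05 ± 0.5, limma adjusted p 0.967).

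Myb domain protein 40 (Cla97C05G094730) rose in WT from 12.76, 10.69 and 13.08 TPM at 10 DAP to 23.37, 27.91 and 27.48 TPM at 34 DAP (1.05 ± 0.18, limma adjusted p 5.08e-05). In clnor it was at 9.41, 11.03 and 13.1 TPM and then at 10.54, 10.98 and 10.22 TPM. The clnor libraries of 34 DAP lay within the range of the young ones and below all WT libraries of that age, a difference of -1.23 ± 0.18 (limma adjusted p 1.28e-05). The MYB gene Cla97C10G199550 stayed below 2 TPM in most libraries and reached 5.33, 5.65 and 7.05 TPM in WT at 34 DAP, where clnor was at 0.34, 0 and 0.54 TPM (-2.45 ± 0.26, limma adjusted p 2.91e-07). The MYB-related gene Cla97C09G179450 was at 6.51, 8.47 and 9.72 TPM in WT and at 0, 0.17 and 0.17 TPM in clnor at that age (-3.04 ± 0.51, limma adjusted p 6.63e-05). Both had libraries of the genotypes apart from 26 to 42 DAP. Their smaller differences depended on single libraries. At 26 DAP the call of Cla97C10G199550 was lost without WT replicate 2 or clnor replicate 2 (limma adjusted p 0.0563 and 0.0557, range 0.0065 to 0.0563). At 42 DAP that of Cla97C09G179450 was lost without WT replicate 1, WT replicate 2 or clnor replicate 1 (limma adjusted p 0.116, 0.0557 and 0.0727, range 0.00723 to 0.116).

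**Figure D4:**
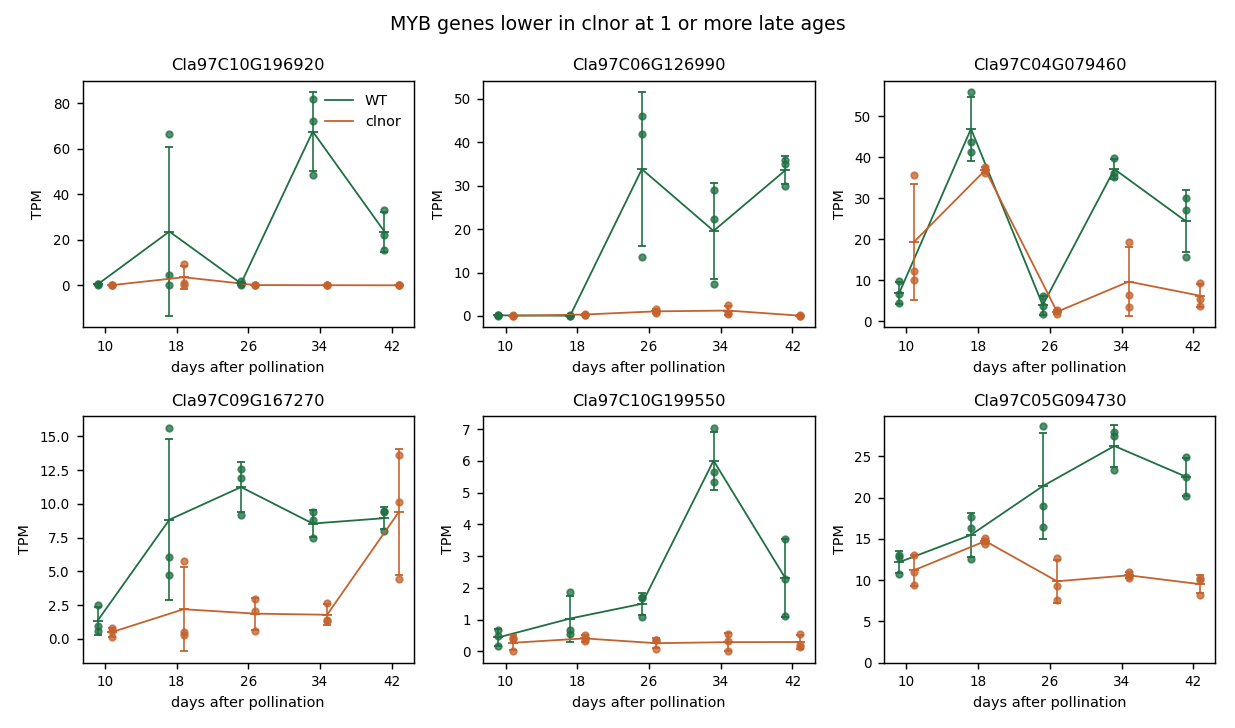
TPM by fruit age of 6 MYB genes called lower in clnor at 1 or more ages; points are libraries, lines join group means, and bars are 1 SD of 3 libraries. WT (green) and clnor (orange) libraries of Cla97C06G126990 separate from 26 DAP on, those of Cla97C10G196920 at 34 and 42 DAP, and those of Cla97C09G167270 at 26 and 34 DAP and not at 42 DAP.

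Among the APL genes, Cla97C01G020610 was the most abundant, with a mean of 81.197 TPM. It was at 108.99, 100.3 and 116.76 TPM in WT and at 48.77, 41.75 and 39.9 TPM in clnor at 34 DAP. At 42 DAP it was at 127.05, 119.0 and 137.13 TPM in WT and at 59.89, 62.24 and 69.18 TPM in clnor. All clnor libraries lay below all WT libraries at both ages (-1.3 ± 0.17 and -0.99 ± 0.17, limma adjusted p 4.38e-06 and 0.00013). The call at 26 DAP (-0.59 ± 0.17, limma adjusted p 0.0243) was lost without WT replicate 1, WT replicate 2 or clnor replicate 2 and in a fit of the compared groups alone (range 0.0107 to 0.164). Of the 7 APL genes, 2 were called lower at 26 DAP, 2 at 34 DAP and 1 at 42 DAP, and none was called higher at those ages. Of all genes 5.8, 12.1 and 13.8% were lower and 9.66, 27.4 and 18.8% higher at these ages in turn. Averaged over the ages 1 APL gene was called higher and 1 lower.

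Many phloem markers fell with fruit age. Of the 7 APL genes 1 rose and 2 fell in WT from 10 to 34 DAP, and none rose and 2 fell in clnor. The 1 that rose was Cla97C01G020610 (0.59, limma adjusted p 0.00756). Of 22 phloem genes listed 17 were tested, 12 of them fell and none rose in WT from 10 to 34 DAP (median log2 -2.206), and 8 fell and none rose in clnor (median log2 -1.356). Of all genes 29.4% fell and 19.1% rose in WT, and 11% fell and 13.2% rose in clnor. Their summed level was 465.94 to 876.15 TPM in WT at 10 DAP and 90.71 to 151.02 TPM in WT at 34 DAP, with 111.29 to 1004.7 TPM in clnor at 34 DAP, where 7 of 22 were at 0 in all libraries. Of the 17 phloem genes tested 4 were called higher in clnor and none lower at 34 DAP (all genes 27.4% and 12.1%), where Cla97C01G020610 was lower. The part of phloem content in these levels was not tested, and in bulk flesh fewer cells of a type and less RNA per cell cannot be told apart.

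Seed markers also differed at 34 DAP. Of 116 seed genes listed 68 were tested, and their summed level was 6111.93 to 7482.78 TPM in WT and 3562.89 to 4117.63 TPM in clnor, with 45 of 116 at 0 in all libraries of WT and 45 in all of clnor. Of the tested seed genes 10 were called higher and 10 lower (median log2 0.135, against 0.199 for all genes). Of all genes 27.4% were higher and 12.1% lower at that age. The 11S globulin gene Cla97C05G092030, a seed storage protein, was lower in clnor by 8.09 ± 1.46 on the log2 scale (limma adjusted p 0.000141). Cla97C05G081350, of the late embryogenesis abundant hydroxyproline-rich glycoprotein family, was higher (2.73 ± 0.57, limma adjusted p 0.000618). The latter met the seed list by the words of its description alone, and whether it marks seed was not tested. The part of seed RNA in the MYB differences of that age was not tested. The summed level of flesh markers was 512.77 to 540.52 TPM in WT and 307.6 to 375.44 TPM in clnor at 34 DAP. Single flesh markers went both ways, with 4 of 9 called higher in clnor and 1 lower (median log2 0.325, all genes 27.4% higher and 12.1% lower). The phytoene synthase gene Cla97C01G008760 was lower (-3.26 ± 0.37, limma adjusted p 6.73e-07) and phytoene synthase 2 (Cla97C02G050140) higher (0.86 ± 0.19, limma adjusted p 0.000985). The part of flesh composition in the MYB differences was not tested.

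Higher in clnor, the MYB/HD-like gene Cla97C05G101190 was at 162.28, 139.07 and 87.63 TPM at 26 DAP, where WT was at 10.01, 12.06 and 9.96 TPM. At 34 DAP it was at 45.03, 13.73 and 12.32 TPM in clnor and at 2.27, 0.69 and 0.56 TPM in WT. Every clnor library exceeded every WT library at both ages (3.44 ± 0.59 and 3.34 ± 0.59, limma adjusted p 0.000337 and 0.000108). At 10 DAP the genotypes overlapped, with 71.57, 46.7 and 18.74 TPM in WT and 65.47, 15.98 and 8.38 TPM in clnor. Both genotypes had low levels at 18 DAP, 0.56, 0.56 and 3.18 TPM in WT and 3.72, 5.74 and 6.33 TPM in clnor.

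MYB transcription factor 1 (Cla97C01G003860) stood at 22.37, 8.68 and 27.54 TPM in clnor, against 1.24, 1.13 and 1.55 TPM in WT at 26 DAP, a difference of 3.02 ± 0.42 (limma adjusted p 4e-05). At 34 DAP it stood at 10.27, 6.22 and 10.57 TPM against 2.46, 2.09 and 3.05 TPM (1.48 ± 0.42, limma adjusted p 0.00751). Quantile normalization lost the call at 34 DAP (0.93, limma adjusted p 0.0933, range 0.00551 to 0.0933). The clnor libraries lay above the WT libraries at both ages. At 42 DAP the genotypes overlapped, and the call of that age (1.12 ± 0.42, limma adjusted p 0.0443) was lost under 8 of 15 alternatives, among them leaving out WT replicate 2 or 3 or clnor replicate 2 or 3 (range 0.0117 to 0.166).

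The MYB98-like gene (Cla97C06G126720), whose Arabidopsis namesake acts in the synergid cells of the ovule, was at 50.55, 57.92 and 48.44 TPM in clnor, against 27.9, 29.35 and 18.58 TPM in WT at 26 DAP. At 34 DAP it was at 36.49, 26.22 and 26.01 TPM in clnor, against 12.36, 8.23 and 9.72 TPM in WT, and at 42 DAP at 21.57, 25.36 and 28.77 TPM and 7.65, 9.13 and 7.51 TPM. The genotypes did not overlap at these ages, and the differences were 1.04, 1.46 and 1.52, each ± 0.22 (limma adjusted p 0.00189, 1.46e-05 and 1.09e-05). At 10 DAP they overlapped (0.07 ± 0.22, limma adjusted p 0.967).

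Cla97C05G106980, which fell with age in WT as given above, was at 21.03, 32.43 and 19.49 TPM in clnor at 34 DAP, above all WT libraries of that age (1.86 ± 0.26, limma adjusted p 7.07e-06). The Myb gene Cla97C03G052880 was at 27.7, 43.97 and 52.02 TPM in clnor, against 4.67, 9.64 and 15.66 TPM in WT at 34 DAP. At 42 DAP it was at 30.43, 48.11 and 69.52 TPM and 14.14, 12.27 and 6.47 TPM. Its libraries did not overlap at either age (2.03 ± 0.62 and 2.06 ± 0.62, limma adjusted p 0.0114 and 0.0125). The call at 34 DAP was lost without WT replicate 1 (limma adjusted p 0.0705, range 0.00949 to 0.0705), and that at 42 DAP without WT replicate 3 or clnor replicate 3 (limma adjusted p 0.0679 and 0.0629, range 0.0082 to 0.0679).

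**Figure D5:**
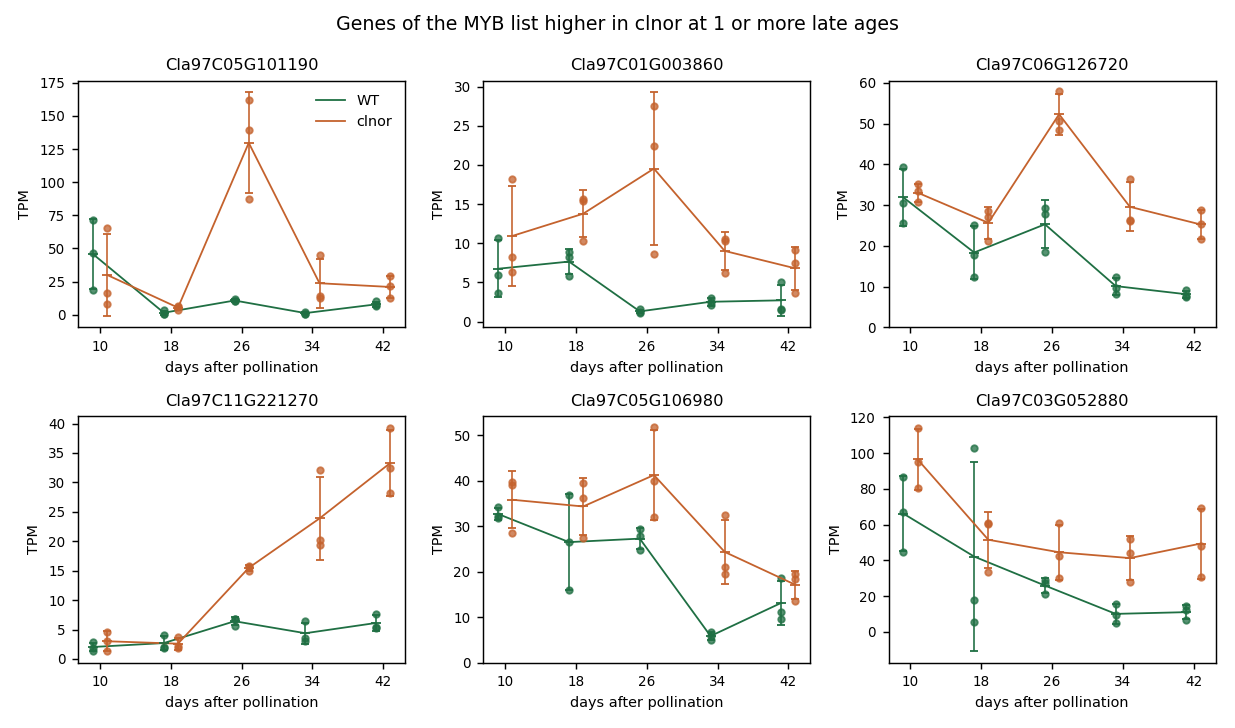
TPM by fruit age of 6 genes of the MYB list called higher in clnor at 1 or more ages, 5 MYB genes and the target of Myb gene Cla97C11G221270; points are libraries, lines join group means, and bars are 1 SD of 3 libraries. Libraries of clnor (orange) lie above those of WT (green) at 26, 34 and 42 DAP for Cla97C06G126720 and Cla97C11G221270, and Cla97C05G101190 stands apart most at 26 DAP.

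Of the 2 three-repeat genes tested, a class known in Arabidopsis for control of cell division genes, myb-related protein 3R-1 (Cla97C08G155540) reached 14.19, 6.11 and 16.17 TPM in clnor, compared with 5.11, 2.71 and 1.69 TPM for WT at 26 DAP. The groups did not overlap (1.64 ± 0.4, limma adjusted p 0.00674). A fit of the compared groups alone lost the call (limma adjusted p 0.0585, range 0.00258 to 0.0585). In both genotypes its level was also high at 42 DAP, 7.89, 4.27 and 10.17 TPM in WT and 10.82, 7.38 and 19.11 TPM in clnor, where no difference passed (0.64 ± 0.4, limma adjusted p 0.232). The Myb/SANT-like gene Cla97C08G151360 varied little, from 14.2 to 23.11 TPM over all libraries, and no genotype comparison called it.

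The Myb family gene Cla97C06G126680, named after its values were seen, was at 5.21, 4.5 and 4.43 TPM in clnor, against 1.56, 1.09 and 0.69 TPM in WT at 34 DAP (1.45 ± 0.21, limma adjusted p 1.18e-05). Its call at 26 DAP (0.63 ± 0.21, limma adjusted p 0.0435) was lost under 9 of 14 alternatives, among them leaving out WT replicate 2 or 3 or any clnor library (range 0.0332 to 0.202). The MYB-related gene Cla97C07G132800, likewise named afterwards, was at 3.56, 2.92 and 4.85 TPM in clnor, against 0.62, 1.42 and 0.65 TPM in WT at 42 DAP (1.34 ± 0.28, limma adjusted p 0.000835). Its call at 34 DAP (0.98 ± 0.28, limma adjusted p 0.00819) was lost after quantile normalization and with a pseudocount of 0.1 (limma adjusted p 0.356 and 0.0603, range 0.00757 to 0.356). The MYB gene Cla97C11G211730 was at 6.26, 8.23 and 4.31 TPM in clnor at 42 DAP and at 0, 0.14 and 0 TPM in WT (2.76 ± 0.34, limma adjusted p 2.15e-06). It reached 1 TPM in only 6 of 30 libraries, these 3 of clnor among them. The 3 alone met the filter, so the gene passed through the group where it was high, and its call is a description only.

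MYB transcription factor protein 4 (Cla97C02G034750), among the 8 most abundant members with a mean of 138.318 TPM, differed mainly at 26 DAP. There it was at 196.1, 131.08 and 163.73 TPM in WT and at 72.13, 65.73 and 68.86 TPM in clnor, without overlap (-1.22 ± 0.21, limma adjusted p 0.000364). At 34 DAP the values were 127.97, 156.19 and 185.44 TPM and 121.83, 177.99 and 136.74 TPM, which overlapped (-0.11 ± 0.21, limma adjusted p 0.728). Another abundant member, the Myb gene Cla97C01G013210, was lower in clnor at 42 DAP, with 58.07, 82.67 and 103.79 TPM against 156.44, 171.68 and 144.04 TPM in WT (-0.98 ± 0.25, limma adjusted p 0.00368). The Myb gene Cla97C08G151350 was at 12.08, 8.56 and 7.16 TPM in clnor, against 36.89, 28.39 and 31.71 TPM in WT at 34 DAP, far apart (-1.72 ± 0.36, limma adjusted p 0.000573).

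Differences averaged over the ages named a few members with wide replicates. The Myb gene Cla97C05G090020 was higher in clnor on average (0.92 ± 0.26, limma adjusted p 0.00561), with 22.69, 3.45 and 14.97 TPM in clnor, against 5.68, 2.56 and 2.12 TPM in WT at 34 DAP, which overlapped. The second named APL gene, Cla97C10G196090, was higher on average (0.88 ± 0.3, limma adjusted p 0.0195). That call was lost after quantile normalization (limma adjusted p 0.0621, range 0.00179 to 0.0621). Its clnor libraries of 34 DAP spread from 2.43 to 22.09 TPM. In the MYB/HD-like gene Cla97C03G068370 the fall from 10 to 34 DAP was called in clnor, from 11.49, 17.04 and 8.37 TPM to 2.34, 3.11 and 2.81 TPM (-1.78 ± 0.3, limma adjusted p 0.000188). In WT it stood at 6.82, 7.23 and 5.82 TPM and then at 3.77, 2.9 and 4.42 TPM (-0.71 ± 0.3, limma adjusted p 0.0578), and the 2 changes did not differ past the threshold (-1.07 ± 0.43, limma adjusted p 0.0723).

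The target of Myb genes, taken by name, moved in both directions. Cla97C11G221270 was at 19.4, 32.06 and 20.17 TPM in clnor, against 3.07, 6.42 and 3.62 TPM in WT at 34 DAP, and at 32.48, 28.12 and 39.31 TPM against 5.43, 7.7 and 5.22 TPM at 42 DAP. Its genotypes lay apart at both ages (2.23 ± 0.3 and 2.27 ± 0.3, limma adjusted p 5.43e-06 and 5.05e-06). At 26 DAP the call (1.16 ± 0.3, limma adjusted p 0.011) was lost without WT replicate 2 (limma adjusted p 0.0521, range 0.00478 to 0.0521). Cla97C04G070300 was at 84.71, 97.71 and 103.58 TPM in WT and at 46.89, 44.59 and 50.22 TPM in clnor at 42 DAP (-0.99 ± 0.15, limma adjusted p 2.11e-05). The most abundant of them, Cla97C10G205980 (mean 185.597 TPM), was called in no comparison. Cla97C08G149030 was at 21.33, 21.02 and 21.05 TPM in WT and at 69.08, 37.5 and 62.42 TPM in clnor at that age (1.33 ± 0.28, limma adjusted p 0.000734).

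The 3 calls of the young ages concerned low genes or depended on single libraries, and they were looked up after the values were seen. At 10 DAP the Myb gene Cla97C04G076110 was at 6.43, 6.8 and 1.23 TPM in WT and 0.52, 0.1 and 1.2 TPM in clnor (-1.71 ± 0.32, limma adjusted p 0.0157). It reached 1 TPM in only 4 of 30 libraries, these 3 of WT and 1 of clnor. It thus passed the filter through the group where it was high, and its call is a description only. The nearest libraries of the genotypes, 1.23 and 1.2 TPM, almost touched, and the call was lost without WT replicate 1, WT replicate 2 or clnor replicate 2, with a pseudocount of 0.1 and in a fit of the compared groups alone (range 1.55e-05 to 0.494). At 18 DAP the MYB-related gene Cla97C10G203110 was at 0.96, 2.7 and 0.99 TPM in clnor, against 0.11, 0 and 0.48 TPM in WT (1.04 ± 0.22, limma adjusted p 0.02). Leaving out WT replicate 2, clnor replicate 1 or clnor replicate 2, or fitting the compared groups alone, lost it (range 0.000864 to 0.57). Also at 18 DAP, Myb 5 (Cla97C09G167270) was at 6.08, 15.65 and 4.74 TPM in WT and 0.51, 0.26 and 5.8 TPM in clnor, where replicate 3 lay within the WT range (-1.9 ± 0.5, limma adjusted p 0.0473). This call was lost under 8 of 16 alternatives, among them leaving out WT replicate 1 or 2 or clnor replicate 1 or 2 (range 0.000172 to 0.57).

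At 18 DAP the number of members called rested on replicate 3 of each genotype, the libraries nearest to the other genotype. Of the 23 called without both, 13 were higher and 10 lower in clnor. Leaving out both was a choice made after seeing the data, and it favours a higher count. The shares of all genes in that fit are not given here, so the count and its split describe no property of the members. The count was 1 without WT replicate 1 and 0 without WT replicate 2, clnor replicate 1 or clnor replicate 2. At an unadjusted p under 0.05 there were 16 members at 18 DAP and 12 at 10 DAP. The share of all genes at that limit is not given here, so these counts show no early difference of the members. At 10 DAP the count of 1 was 0 without WT replicate 1 or clnor replicate 2 and 4 without clnor replicate 1.

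Enzymes and transporters of pathways that MYB factors are known to control in other plants were counted by the words of their descriptions. Of 77 flavonoid and phenylpropanoid genes 54 were tested, and at 34 DAP 11 were higher and 14 lower in clnor (median log2 0.047, against 0.199 for all genes, of which 27.4% were higher and 12.1% lower). Cinnamoyl-CoA reductase 1 (Cla97C10G196950), of lignin precursor synthesis, was higher by 3.48 ± 0.3 (limma adjusted p 2.16e-08), and dihydroflavonol-4-reductase (Cla97C06G109680), of anthocyanidin synthesis, was lower (-6.23 ± 0.68, limma adjusted p 4.02e-07). Members of this list were thus called in both directions.

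Of 37 phosphate starvation genes tested, 15 were higher and 5 lower in clnor at 34 DAP (median log2 0.227). All genes had a median of 0.199 with 27.4% higher and 12.1% lower, a direction that follows the scaling as given above. A phosphate transporter gene (Cla97C10G205070) was lower (-6.88 ± 0.48, limma adjusted p 2.15e-09), and a low-affinity phosphate transporter gene (Cla97C06G124880) was higher (1.14 ± 0.16, limma adjusted p 9.01e-06). Of 25 wax and cuticle genes tested 7 were higher and 4 lower (median log2 0.121). Higher was a 3-ketoacyl-CoA synthase gene (Cla97C05G089490, 1.16 ± 0.2, limma adjusted p 8.01e-05), of long chain fatty acid elongation, and lower was long chain acyl-CoA synthetase 7 (Cla97C05G086550, -1.14 ± 0.32, limma adjusted p 0.00642). The latter was listed by the words of its description alone, and a role in wax or cuticle was not shown. Of 11 secondary wall genes tested 1 was higher and none lower. That was the laccase gene Cla97C10G205100 (1.42 ± 0.43, limma adjusted p 0.0106), of a family that joins lignin units. The other laccase gene named, Cla97C04G077550, differed by -0.23 ± 0.24 at 34 DAP (limma adjusted p 0.465). It was called lower in clnor at 26 DAP (-0.71 ± 0.24, limma adjusted p 0.0426) and 42 DAP (-0.83 ± 0.24, limma adjusted p 0.0086). Averaged over the ages it was lower (-0.42 ± 0.11, limma adjusted p 0.00231) and Cla97C10G205100 higher (0.69 ± 0.19, limma adjusted p 0.00475). No link between a MYB gene and any of these genes was tested.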

How the data were processed

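RNA from flesh of 30 watermelon samples was measured in 10 groups of 3, mapped to genotype and age by the labels. TruSeq RNA libraries were made from Trizol extracts cleaned on RNeasy columns with DNase I, per the labels' protocols. Cufflinks, HISAT2, StringTie and TopHat2 are named in the submitters' processing notes. Which versions and which assembly they used is not given in the sources used here. TPM values per gene were computed by the authors and used as deposited. TPM keeps no depth, so the precision of low values is unknown and a value of 0 may be a failed estimate. Reads of near-identical MYB copies may have been split between them.

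Genes at 1 TPM or more in at least 3 libraries were fitted as log2(TPM + 1) with limma 3.58.1 (R 4.3.3, statmod 1.5.0; trended, robust, 20 residual degrees of freedom). All 10 groups shared 1 model. Two-sided p-values were adjusted over 16503 genes within a comparison (Benjamini-Hochberg), with a threshold of 0.05. The code was tested on simulated data. Tables and figures were made with Python 3.11.15, pandas 2.3.3, numpy 2.4.6 and matplotlib 3.10.9.

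Members, classes and gene lists were chosen with earlier results of these data known, and the description classes were remade after the descriptions were read. A list of MYB partner proteins matched no description. Genes were named by size of difference among called members whose libraries did not overlap and whose higher mean was at least 5 TPM, up to 5 per direction and age. By the same rule up to 6 per direction were named for WT 34 against 10 DAP and up to 4 for clnor 34 against 10 DAP. For the averaged comparison up to 6 were named. There the same order of group means at all 5 ages was asked for, and overlap was allowed. For the difference of the 2 changes up to 4 were named, with a group mean of at least 5 TPM and overlap allowed. The 8 most abundant members and the most abundant of each class were added, which gave 37. In each other list up to 2 genes with the smallest averaged p were named. Alternatives were other pseudocounts (0.1, 0.5), filters, scalings, a replicate block, fits of the compared groups alone and single libraries left out.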

Additional observations from a re-analysis of the deposited data

Results flagged for a closer look

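The change from 10 to 34 DAP differed between the genotypes by a test of the difference itself (limma, adjusted over all genes) for 24 members. The 8 given here are the largest differences in each direction, 4 and 4, among those that reached a group mean of 5 TPM. The values are the clnor change minus the WT change on the log2 scale, with SE. It was lower in clnor for Cla97C10G196920 (-5.65 ± 1.22, limma adjusted p 0.00202), Cla97C04G079460 (-3.34 ± 0.66, limma adjusted p 0.000945) and Cla97C06G126990 (-3.0 ± 0.56, limma adjusted p 0.0006). It was also lower for Cla97C09G179450 (-2.4 ± 0.72, limma adjusted p 0.019), and that call was lost without replicate 1 of WT or of clnor at 10 DAP (limma adjusted p 0.0556 and 0.0531, range 0.00619 to 0.0556). It was higher for Cla97C05G101190 (4.24 ± 0.83, limma adjusted p 0.000938), Cla97C11G221270 (1.89 ± 0.43, limma adjusted p 0.00288) and Cla97C05G106980 (1.75 ± 0.37, limma adjusted p 0.00158). The last, Cla97C07G140810, was higher (2.23 ± 0.67, limma adjusted p 0.0179), and quantile normalization or leaving out clnor 34 DAP replicate 2 or 3 lost the call (limma adjusted p 0.0609, 0.0526 and 0.0562, range 0.00149 to 0.0609).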

How the results depend on the processing

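For 41 genes, 37 of them named by the rule, 145 differences were recomputed, 3098 values in all. None of the 138 called differences turned its direction. Of the differences not called, the averaged one of Cla97C10G205980 (-0.03) ran from -0.07 to 0.01. Of the called differences 103 kept their call under every alternative run for them; the other 35 lost it under at least 1. The count of MYB genes called at 10 DAP (1) was 0 with a pseudocount of 0.1, with a filter at 5 TPM and in a fit of the compared groups alone, and 2 with no filter. At 18 DAP (2) it was 1 with a pseudocount of 0.1, with no filter and with the replicate block, 4 with upper-quartile scaling, 0 in a fit of the compared groups alone and 23 without both replicate 3 libraries. For clnor at 34 against 10 DAP (22) it was 8 in a fit of the compared groups alone. The cause was not tested. With single libraries left out, the counts ran from 0 to 4 at 10 DAP, 0 to 12 at 18 DAP, 12 to 20 at 26 DAP, 32 to 37 at 34 DAP and 22 to 26 at 42 DAP, and from 39 to 47 averaged over the ages. They ran from 38 to 45 for WT 34 against 10 DAP, 16 to 23 for clnor and 19 to 27 for the difference of the changes. Equal replicate numbers did not pair the samples (correlations of deviations -0.407 to 0.247), and with the replicate block the counts were 1, 1, 20, 35, 27, 43, 46, 19 and 22 for the 9 comparisons in the order of the ages, the average, WT, clnor and the difference.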
